A study of Mus musculus with 3 samples.

Results

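The 10 genes described here encode 6 S100 proteins (S100a4, S100a6, S100a8, S100a9, S100a10 and S100a11) and 4 annexins (Anxa1, Anxa2, Anxa3 and Anxa5). They were chosen by gene symbol from an annotation of 55536 genes, and each symbol led to exactly 1 gene. The cells were C57BL/6J bone-marrow-derived macrophages, that is, primary macrophages grown from marrow precursors. They had been exposed to Lipid A, the part of bacterial lipopolysaccharide that the receptor TLR4 recognises, at 100 ng/ml for 12 h, kept without it for 12 h, and given 100 ng/ml again for 30 min. RNA of the cytosolic fraction was depleted of ribosomal RNA and sequenced from 1 µg of starting RNA. There was 1 group of 3 biological replicates and no untreated, singly treated or nuclear sample, so the levels below describe this one state and show no response to Lipid A. All 3 libraries carry the same donor entry, and age and sex were not recorded. Whether the replicates came from separate animals or cultures is not stated, and the spread between libraries may in part be technical.

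S100 proteins are small calcium-binding proteins with a pair of EF-hand motifs, and most of them act as dimers that open a binding face when calcium rises. Annexins are larger proteins with repeated domains that attach to acidic membrane phospholipids, again in the presence of calcium. The families meet in fixed complexes: S100a10 joins Anxa2 at the plasma membrane, and S100a11 binds the N-terminal tail of Anxa1. In myeloid cells S100a8 and S100a9 form calprotectin, a heterodimer abundant in neutrophils that sequesters metal ions and is released as an alarm signal, while Anxa1 is known as a glucocorticoid-linked, inflammation-limiting protein that signals through formyl peptide receptors.

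The libraries held 28759407, 54709008 and 49878183 expected counts in annotated genes in replicates 1, 2 and 3. Levels are given in TPM, a relative unit corrected for transcript length and library size. Between 58.0% and 64.8% of all TPM lay in genes of 7SL, the RNA of the signal recognition particle, and the 22015 nuclear protein-coding genes shared 27.9% to 30.0%, so a TPM here is low for the rank that it gives. All 10 macrophage markers examined were detected, from Mrc1 at 20.3 TPM to Lyz2 at 3194 TPM.

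The proximal promoters of 4 of these genes are shown because they belong to genes that behaved differently between libraries: S100a4 and S100a6, close neighbours with the lowest levels in replicate 3 relative to the other libraries, S100a11, which differed less, and Anxa5, the most even in first-table TPM. Each is the run of 250 bases that ends just before the RefSeq transcription start, 5′ to 3′ on the gene's own strand, from build GRCm38.p6. Capitals mark matches to any of 5 motifs searched on both strands: TATAAA (the TATA box), TGANTCA (AP-1), TTGCNNAA (C/EBP), GGGCGG (SP1) and the NF-kB consensus.
S100a4, chr3:90603520-90603769, plus strand: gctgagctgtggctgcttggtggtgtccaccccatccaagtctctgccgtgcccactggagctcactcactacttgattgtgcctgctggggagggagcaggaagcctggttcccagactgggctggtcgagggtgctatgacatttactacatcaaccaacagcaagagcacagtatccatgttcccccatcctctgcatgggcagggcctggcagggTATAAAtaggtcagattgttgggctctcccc
S100a6, chr3:90612644-90612893, plus strand: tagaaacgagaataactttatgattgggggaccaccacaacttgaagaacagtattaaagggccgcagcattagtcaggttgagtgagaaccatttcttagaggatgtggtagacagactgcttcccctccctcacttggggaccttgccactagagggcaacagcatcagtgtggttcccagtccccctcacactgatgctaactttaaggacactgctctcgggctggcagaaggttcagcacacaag
S100a11, chr3:93520246-93520495, plus strand: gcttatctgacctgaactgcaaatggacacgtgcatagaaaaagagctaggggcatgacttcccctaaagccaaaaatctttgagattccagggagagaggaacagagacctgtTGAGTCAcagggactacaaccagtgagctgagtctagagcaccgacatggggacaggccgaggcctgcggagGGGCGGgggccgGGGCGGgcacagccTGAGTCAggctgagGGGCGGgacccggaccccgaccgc
Anxa5, chr3:36475888-36476137, minus strand: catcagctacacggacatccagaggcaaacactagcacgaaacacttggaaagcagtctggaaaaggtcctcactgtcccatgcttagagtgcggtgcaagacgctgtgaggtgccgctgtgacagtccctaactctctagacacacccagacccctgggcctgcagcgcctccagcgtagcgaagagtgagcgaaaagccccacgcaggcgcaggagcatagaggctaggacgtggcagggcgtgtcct
The S100a4 promoter held 1 match, a TATAAA at 31 to 26 bases before the start. The S100a11 promoter held 5, namely TGANTCA at 136 to 130 and at 38 to 32 bases and GGGCGG at 3 places. The promoters of S100a6 and Anxa5 held none of the 5 motifs.

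RefSeq promoters of this length were matched for 8 of the 10 genes, all but S100a10 and Anxa3. TATAAA was present for S100a4, S100a8, Anxa1 and Anxa2, compared with 12.4% of all 32851 promoters in the table. TGANTCA, which reads the same on both strands and was counted once per place, was present for S100a11 and Anxa2, compared with 6.75% of promoters. TTGCNNAA was present for S100a9 and Anxa1, against 9.56%, and GGGCGG for S100a9, S100a11 and Anxa2, against 32.7%. The NF-kB consensus had no match in these 8 windows and was present in 5.93% of all promoters. In the annotation used for the counts the gene start lay 273 bases upstream of the RefSeq start for Anxa1, 93 for S100a8 and 63 for Anxa2, so these 3 windows partly or wholly lie inside the annotated gene. For the other 5 the starts differed by at most 12 bases. These are matches of letters and say nothing of whether a factor was bound.

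All 10 genes were detected, meaning at least 1 TPM in every library, whereas 41.2% of nuclear protein-coding genes were. Their mean levels spanned 3.53 to 126.5 TPM, with a median of 47.4 TPM compared with 8.11 TPM over all 9556 detected genes. The genes were chosen with earlier results of these data known, so both contrasts with other genes may follow from that choice. Of the family members left out, 2 of 11 S100 genes and 5 of 8 annexins were detected. The 4 annexins had a median of 93.6 TPM and the 6 S100 genes one of 25.1 TPM. Together the 10 genes made up 0.188%, 0.199% and 0.154% of the TPM of nuclear protein-coding genes in replicates 1, 2 and 3.

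**Figure D1:**
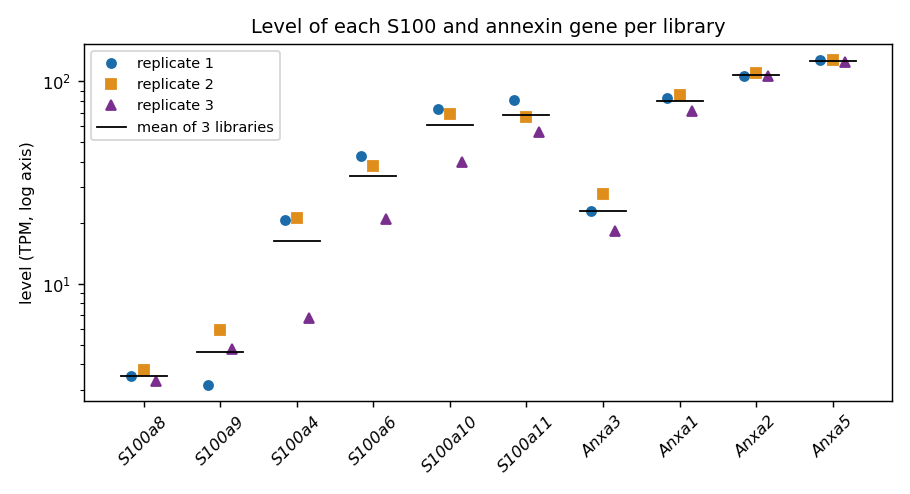
Level of the 10 genes in each of the 3 libraries, in TPM on a log axis; symbols are libraries and the bar is their mean. Anxa5 and Anxa2 lie at 106 to 127 TPM with the libraries close together, S100a8 and S100a9 lie at 3.18 to 5.89 TPM, and replicate 3 lies well below the others for S100a4, S100a6 and S100a10.

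Anxa5 (ENSMUSG00000027712.13, chr3:36448923-36475894, minus strand, mm10) encodes the annexin used as a probe for phosphatidylserine on dying cells, and it was the highest of the 10. Its level was 127, 127 and 125 TPM in replicates 1, 2 and 3 (126.5 ± 1.16, SD, n = 3), rank 335 among nuclear protein-coding genes. Anxa2 (ENSMUSG00000032231.14, chr9:69453620-69491795, plus strand), which links membranes to actin and to plasminogen activation, was at 106, 110 and 106 TPM (107.5 ± 2.07, n = 3). These were the most even of the 10 genes in TPM of the first table, where their ranges did not overlap. In the second table, a separate quantification of the same libraries, they did: Anxa5 was at 54.2, 56.6 and 34.7 TPM and Anxa2 at 48.9, 55.9 and 34.8 TPM. Anxa1 (ENSMUSG00000024659.15, chr19:20373428-20390944, minus strand) was at 82.3, 85.3 and 71.3 TPM (79.7 ± 7.39, n = 3), below Anxa2 in every library. Anxa3 (ENSMUSG00000029484.12, chr5:96793339-96845966, plus strand), an annexin best known from neutrophil granules, was at 22.8, 27.9 and 18.3 TPM (23.0 ± 4.79, n = 3). It was the lowest of the 4 annexins in all 3 libraries.

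Among the S100 genes, S100a11 (ENSMUSG00000027907.4, chr3:93520488-93526287, plus strand) had the highest mean. It was at 81.3, 66.7 and 56.3 TPM in replicates 1, 2 and 3 (68.1 ± 12.5, n = 3). S100a10 (ENSMUSG00000041959.14, chr3:93555080-93564643, plus strand), the S100 protein that has lost calcium binding and stays in its active shape, was at 73.3, 69.0 and 40.0 TPM (60.8 ± 18.1, n = 3). For both genes the lowest value was in replicate 3, and for S100a10 that value stood far from the others. S100a6, or calcyclin (ENSMUSG00000001025.8, chr3:90612882-90624181, plus strand), was at 42.9, 38.2 and 20.8 TPM (34.0 ± 11.6, n = 3). S100a4 (ENSMUSG00000001020.8, chr3:90603771-90606045, plus strand), which binds non-muscle myosin and is linked to cell motility, was at 20.7, 21.1 and 6.76 TPM (16.2 ± 8.17, n = 3). Replicates 1 and 2 nearly coincided for S100a4, and replicate 3 was far below them. Without replicate 3 the means were 20.9 TPM for S100a4, 40.5 TPM for S100a6 and 71.2 TPM for S100a10.

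S100a8 (ENSMUSG00000056054.9, chr3:90668978-90670035, plus strand) was at 3.51, 3.76 and 3.31 TPM in replicates 1, 2 and 3 (3.53 ± 0.226, n = 3), from 43, 100 and 75 expected counts. S100a9 (ENSMUSG00000056071.12, chr3:90692632-90695721, minus strand) was at 3.18, 5.89 and 4.77 TPM (4.61 ± 1.36, n = 3), from 43, 172 and 119 counts. The calprotectin genes were thus the lowest of the 10, at ranks 6981 and 6241 among nuclear protein-coding genes, and their levels overlapped. Exact 95% Poisson intervals, which cover counting error only, ran from 31.1 to 57.9 for the 43 counts of each gene in replicate 1, from 81.4 to 121.6 for S100a8 and 147.3 to 199.7 for S100a9 in replicate 2, and from 59.0 to 94.0 and 98.6 to 142.4 in replicate 3. Of 10 markers of neutrophils, the cells richest in calprotectin, 1 was detected, Mmp8 at 2.04 ± 0.376 TPM (n = 3). Ly6g and Retnlg had 0 counts in every library. A count of 0 leaves room for up to 3 counts in a library. The 10 markers summed to 2.82, 2.72 and 3.01 TPM. Their part in the levels of S100a8 and S100a9 was not tested.

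In the order of mean TPM, neighbouring genes were said to differ where the log2 difference within a library, with 1 TPM added, pointed one way in each of the 3 libraries and averaged over 3 SD. By this rule Anxa5 stood above Anxa2 by 0.23 ± 0.03 (log2, SD over libraries), Anxa2 above Anxa1 by 0.43 ± 0.12, and S100a10 above S100a6 by 0.83 ± 0.07. Anxa5 and Anxa2 were not resolved in the second table, where their difference was 0.05 ± 0.08 and slightly negative in replicate 3, and the separation therefore depends on the quantification. The other 2 calls were also made in the second table. The remaining neighbours did not differ beyond their spread. Anxa1 and S100a11 were 0.23 ± 0.19 apart, S100a11 and S100a10 0.19 ± 0.27, and S100a6 and Anxa3 0.50 ± 0.36. The wide spread between libraries also left Anxa3 and S100a4 unresolved at 0.61 ± 0.62, S100a4 and S100a9 at 1.50 ± 0.99, and S100a9 and S100a8 at 0.28 ± 0.34. Without replicate 3, S100a4 stood above S100a9 by 2.03 ± 0.49, past 3 SD. That SD rests on replicates 1 and 2 alone, so the difference is not taken as resolved.

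Genes whose products act together, or that lie close together, were compared within each library as 4 pairs. With 3 libraries the exact sign-flip test cannot give a two-sided p below 0.25 (adjusted p = 0.333 over the 4 pairs), so the comparison rests on the sizes and their spread. Anxa2 exceeded its partner S100a10 by a TPM ratio of 1.45, 1.59 and 2.66 in replicates 1, 2 and 3. The log2 difference was 0.86 ± 0.46 (n = 3), positive in all 3 libraries but under 3 SD. The ratio of replicate 3 stood apart because S100a10 was low there while Anxa2 was not. Without replicate 3 the difference was 0.60 ± 0.09, past 3 SD, but that SD rests on replicates 1 and 2 alone. Anxa1 exceeded S100a11 by a TPM ratio of 1.01, 1.28 and 1.27. In replicate 1 the levels of Anxa1 and S100a11 were nearly equal, and the log2 difference of 0.23 ± 0.19 was not beyond the spread. Without replicate 1 it was 0.34 ± 0.01, with an SD from replicates 2 and 3 alone. Differences past 3 SD only after a library was left out are not taken as resolved.

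S100a6 exceeded S100a4 by a TPM ratio of 2.07, 1.81 and 3.08. The log2 difference was 1.11 ± 0.34 (n = 3), positive in all 3 libraries and the only pair difference past 3 SD. It is close to that limit: it fell short without replicate 1 (1.16 ± 0.47) and with 0.1 TPM added in place of 1 (1.17 ± 0.39). S100a9 relative to S100a8 had TPM ratios of 0.906, 1.57 and 1.44. The sign changed between libraries, the log2 difference was 0.28 ± 0.34, and the exact sign-flip test gave p = 0.50. Without replicate 1, the library with the fewest counts, the log2 difference was 0.48 ± 0.08, with an SD from the remaining libraries alone.

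The genes differed widely in how evenly the libraries carried them. Over 13410 genes with a mean of at least 10 counts, a chi-square test asked whether counts differed between the 3 libraries by more than counting error, after TMM scaling. This was so for 9 of the 10 genes at an adjusted p under 0.05, and for 66.2% of all genes tested, so exceeding counting error was common in these libraries. S100a8 was the exception, with an adjusted p of 0.469 in the chi-square test over all tested genes, at the lowest counts of the 10. Without replicate 3 the count was 5 of 10, with 44.2% of all genes.

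TMM-scaled CPM, counts relative to library size without a correction for length, give the size of these differences. S100a4 had 9.35, 10.6 and 3.20 CPM in replicates 1, 2 and 3, a highest-to-lowest ratio of 3.30. S100a6 had 26.8, 24.4 and 12.1 CPM, a ratio of 2.21, and S100a10 had 56.2, 57.8 and 31.5 CPM, a ratio of 1.83. In all 3 genes replicates 1 and 2 lay close together and replicate 3 lay below both. S100a9 had a ratio of 2.05, but there replicate 1 was lowest, at 1.52 CPM compared with 3.10 and 2.38. Anxa3 had 51.2, 68.3 and 40.4 CPM, a ratio of 1.69, with no library close to another. At the even end were Anxa2 with a ratio of 1.12, Anxa5 with 1.15, S100a8 with 1.20, Anxa1 with 1.28 and S100a11 with 1.38, around the median of 1.25 over all tested genes.

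Replicate 3 was the lowest library for 8 of the 10 genes, all but S100a9 and Anxa2, and for 36.2% of all genes tested. Relative to the mean of the other libraries, replicate 3 stood at -1.64 (log2) for S100a4, -1.08 for S100a6, -0.85 for S100a10, -0.57 for Anxa3 and -0.40 for S100a11. The values were smaller for Anxa1 (-0.28), Anxa5 (-0.19), S100a8 (-0.15) and Anxa2 (-0.06), and S100a9 stood at 0.04. The median was -0.34 over the 10 genes and -0.02 over all tested genes. Values at least as low were found in 0.567% of tested genes for S100a4, 1.74% for S100a6 and 2.83% for S100a10. These genes hold the lowest of the 10 values in a library singled out after seeing the data, so the shares are no test. The edgeR estimate of biological variation relative to its trend, which uses the same counts, placed S100a4, S100a6, S100a10 and Anxa3 at percentiles 99.4, 99.1, 98.5 and 96.7 of the 12738 genes with an estimate, and Anxa5, Anxa2 and S100a8 at 43.6, 34.2 and 4.18. Replicate 2 stood higher than the mean of the other libraries, but that mean includes replicate 3, so this is not a separate departure. In replicate 2, 0 of the 10 genes stood below it, compared with 44.9% of all tested genes. This held for S100a6 and S100a11 too, although their CPM was higher in replicate 1 (26.8 and 38.5) than in replicate 2 (24.4 and 35.0). The median in replicate 2 was 0.29 (log2) over the 10 genes and 0.03 over all tested genes. S100a4 (0.75), S100a9 (0.67) and Anxa3 (0.58) lay above the 95th percentile there, 0.50. In replicate 1, S100a9 (-0.85) lay below the 5th percentile, -0.66.

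**Figure D2:**
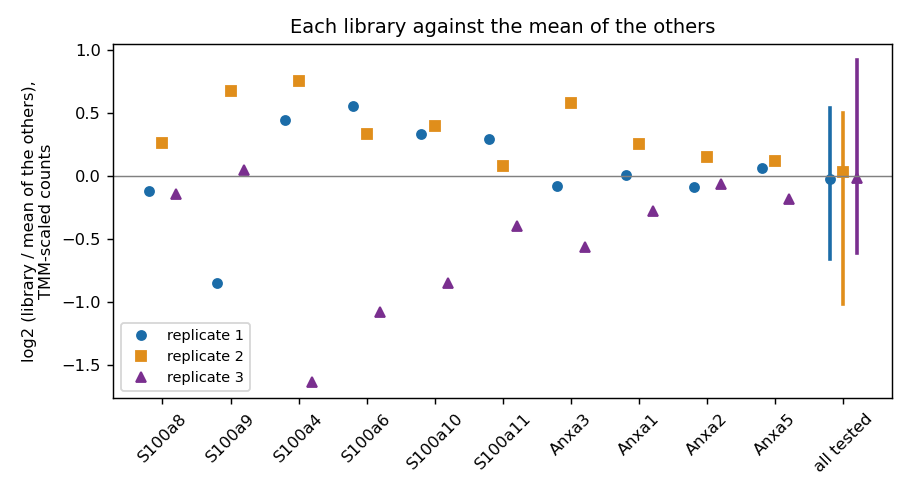
Log2 ratio of each library to the mean of the other libraries, from TMM-scaled counts, for the 10 genes; at the right, the symbol is the median and the line the range from the 5th to the 95th percentile over all tested genes. Replicate 3 runs from -1.64 for S100a4 to 0.04 for S100a9, and S100a4, S100a6 and S100a10 lie under the range of all genes, while Anxa2 and Anxa5 stay near 0.

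Other features of replicate 3 are given for comparison. Its share of TPM in 7SL genes was 58.0%, compared with 63.2% and 64.8% in replicates 1 and 2. The difference between length and effective length of Anxa5-201 in the second table, which follows the fragment length, was 208 bases, compared with 242 and 234 bases. The S100 genes are short, and among the 969 tested genes under 800 bases, which include all 6 S100 genes, the median of replicate 3 was -0.08 and 39.2% were lowest there. Of the marker lists, the 10 macrophage genes summed to 5179, 4940 and 5238 TPM in replicates 1, 2 and 3, the 9 stromal and epithelial genes to 0.56, 0.19 and 0.29 TPM with 0 detected, and the 5 lymphoid genes to 0.06, 0.1 and 0.07 TPM with 0 detected. No list's sum, the neutrophil sum included, was lowest in replicate 3. Single genes, most of them at few counts outside the macrophage list, were divided. By CPM, 3 of the 6 stromal and epithelial genes with counts were lowest in replicate 3 and 2 were highest. For the 8 neutrophil genes with counts these numbers were 1 and 5, and for the 5 lymphoid genes 0 and 3. Lyz2 makes up most of the macrophage sum, and single macrophage markers moved in both directions. By CPM, 3 of the 10 were lowest in replicate 3 (Cd68, Mrc1 and Cd14) and 4 were highest there (Adgre1, Itgam, Mertk and Marco). Mrc1 had 208.9, 198.5 and 132.1 CPM in replicates 1, 2 and 3, and Marco had 206.2, 314.2 and 488.5 CPM. The part of the 7SL share, the fragment length and these markers in the low S100 values was not tested. In bulk RNA, fewer cells expressing a gene and less RNA per cell cannot be told apart.

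Most of these genes were carried by 1 transcript. The leading transcript held at least 93.1% of the gene's TPM, as a mean of 3 libraries, for S100a4, S100a8, S100a10, S100a11, Anxa1, Anxa2 and Anxa3. S100a6 was divided between a pair of protein-coding transcripts. S100a6-203 held 49.0%, 58.6% and 63.4% in replicates 1, 2 and 3 (57.0% ± 7.37, n = 3) and S100a6-201 held 51.0%, 41.3% and 36.6%. Their order changed between replicate 1 and the others, and in the second table the means were 50.5% and 49.2%. S100a9-201 held 84.9%, 92.0% and 85.6%, with the rest in S100a9-202.

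Anxa5 had the largest share in a transcript annotated as not coding. The retained-intron transcript Anxa5-202, of 567 bases, held 11.7%, 16.7% and 23.5% of the gene's TPM in replicates 1, 2 and 3 (17.3% ± 5.94, n = 3). In the second table it held 4.81%, 2.11% and 5.62% (4.18% ± 1.84), so its size depends on the quantification. The main coding transcript, Anxa5-201, was at 112, 106 and 95.6 TPM in the first table, less even than the gene total. It lay above Anxa2-201, at 105.4, 109.5 and 105.9 TPM, in replicate 1 but below it in replicates 2 and 3. The evenness and top rank of Anxa5 in first-table TPM thus refer to the sum of its transcripts.

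**Figure D3:**
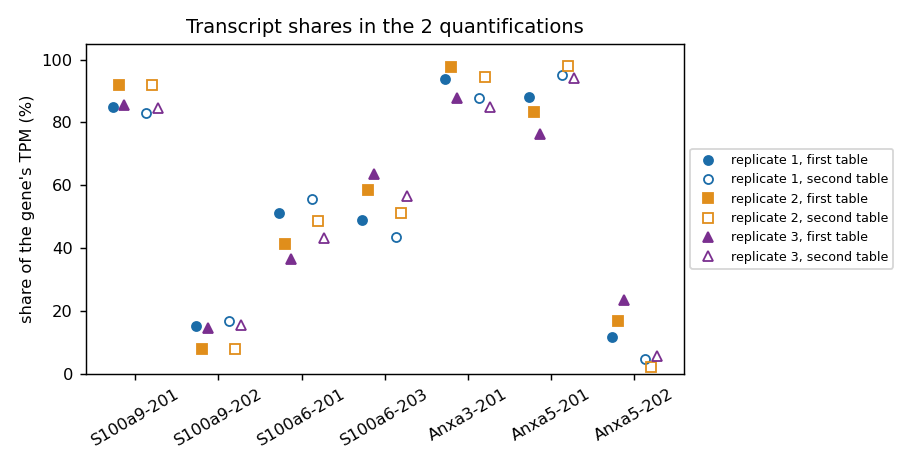
Share of each gene's TPM held by 7 transcripts of S100a6, S100a9, Anxa3 and Anxa5, in percent; filled symbols are the first table, open symbols the second, and symbol shapes are libraries. The Anxa5-202 share is 11.7% to 23.5% in the first table and 2.11% to 5.62% in the second, whereas the S100a9 shares nearly coincide.

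All 6 S100 genes lie on chromosome 3, as do 14 of the S100 genes examined. From S100a1 to S100a9, 12 S100 genes fit within 184.7 kb, and 6 of them were detected. Genes with and without counts were interspersed along it. S100a4 and S100a6 are 6.84 kb apart on the same strand, and S100a5, which lies between them, had 0 counts in every library. S100a3 and S100a2, on the other side of S100a4, also had 0 counts. S100a8 and S100a9 lie 22.6 kb apart on opposite strands. S100a11 and S100a10 lie 2.83 Mb further along, 28.8 kb from each other, and were the highest of the S100 genes.

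**Figure D4:**
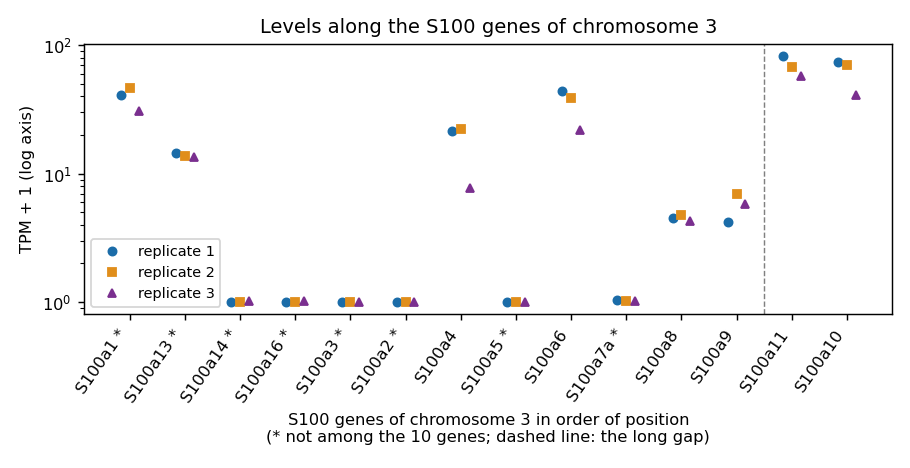
Levels of the 14 S100 genes of chromosome 3 in their order along the chromosome, as TPM + 1 on a log axis; symbols are libraries, and the dashed line marks the 2.83 Mb gap. S100a4 and S100a6 are detected on either side of S100a5 at 0, and S100a11 and S100a10 past the gap are highest.

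The other genes of both families were mostly off or moderate. Of 12 further S100 genes 11 were found in the annotation, 2 of them were detected and 5 had 0 counts in every library. S100a1 was at 39.9, 45.4 and 29.6 TPM (38.3 ± 8.04, n = 3), above S100a4 in every library and, like it, lowest in replicate 3. S100a13, which takes part in export of FGF1, was at 12.9 ± 0.571 TPM (n = 3). Of 8 further annexins 5 were detected and 3 had 0 counts. Anxa4 was at 168, 148 and 116 TPM (143.8 ± 26.5, n = 3), above Anxa5 in replicates 1 and 2 and below it in replicate 3. Anxa6 was at 62.8 ± 11.1 TPM, Anxa7 at 25.5 ± 3.02, Anxa11 at 15.7 ± 0.922 and Anxa9 at 1.26 ± 0.0551 (each n = 3). By TPM, S100a13, Anxa4, Anxa7 and Anxa9 were also lowest in replicate 3. In contrast, Anxa6 was highest there and Anxa11 was lowest in replicate 2.

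Among 14 genes for binding partners and receptors of these proteins, 11 were detected. Of the cytoskeletal and membrane partners, Ahnak, a giant scaffold bound by the Anxa2 and S100a10 complex, was at 54.1 ± 11.8 TPM, and Myh9, the myosin heavy chain bound by S100a4, at 53.6 ± 8.67 TPM (n = 3). Dysf, for the membrane-repair protein dysferlin, had at most 1 count in any library. The S100a6-binding proteins Cacybp and Sugt1 were at 24.1 ± 0.798 and 20.4 ± 2.79 TPM, and S100pbp was at 3.48 ± 0.322 TPM. Of the plasminogen system, the receptor gene Plgrkt was at 22.6 ± 2.28 TPM and the urokinase receptor gene Plaur at 1.70 ± 0.544 TPM, while Plat, for tissue plasminogen activator, was not detected. The formyl peptide receptor genes Fpr1 and Fpr2, receptors for Anxa1, were at 13.7 ± 0.291 and 17.3 ± 3.34 TPM. For extracellular S100a8 and S100a9, Tlr4 and its co-receptor gene Ly96 were at 23.3 ± 4.25 and 21.6 ± 3.81 TPM, while Ager, for the receptor RAGE, was at 0.03 TPM and not detected.

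The expected counts of these genes carried little uncertainty from reads that fit several genes. The posterior SD of the expected count of a gene, which reflects how surely such reads were assigned, was 0 in every library for 8 of the 10 genes. It was at most 1.03 counts for the others, S100a4 and S100a11. The posterior SD does not count shared reads, since reads given wholly to 1 gene leave it small. Being a value per gene, it says nothing of how surely reads were divided between transcripts of 1 gene. Genes that overlap the 10 held few counts. Gm42674, a protein-coding gene on the strand of S100a4 whose exons overlap it, was assigned 0 counts in every library. How many S100a4 reads also fit Gm42674 was not examined. Gm42603, which overlaps Anxa3 exons, had 23, 9 and 23 counts, compared with 1452, 3786 and 2016 for Anxa3. The antisense gene Gm16144 at Anxa2 had at most 4. Whether counting used strand is not given in the sources used here.

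The second table gave lower TPM for nearly all genes, with a median log2 difference of -1.16 over detected genes. Relative to that median, 9 of the 10 genes lay within the range from the 5th to the 95th percentile, -0.21 to 0.38. Anxa5 lay just outside, at -0.23. In the second table replicate 3 was lower than the mean of the other libraries for 10 of 10 genes, S100a9 included at -0.05. There the median of all genes was also lower, at -0.11, and 66.9% of them were lower. S100a4, S100a6 and S100a10 stood at -1.75, -1.18 and -0.96 in it.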

How the data were processed

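Deposited tables of 3 kinds were used for each of the 3 libraries: gene and transcript tables of expected counts, TPM and percent of the gene's TPM, and a second transcript table of estimated counts and TPM. The deposited expected counts and the authors' TPM are unscaled between libraries and relative to the sum over all rows, respectively. The transcript share is the transcript's TPM as a percent of the summed TPM of its gene's transcripts, computed in the same way for both quantifications. Assembly mm10 with GENCODE M21 is named per the labels' and files' notes. For the aligner and quantifier, names and versions were not given in the sources used here. Rows outside the annotation (0.167% to 0.774% of counts) were left out.

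Library sizes were scaled by TMM (edgeR 4.0.16). Counts were compared between libraries by a chi-square test with Benjamini-Hochberg adjustment over 13410 genes with a mean of at least 10 counts, tested on simulated data. Pairs were compared on log2(TPM + 1) within a library, with exact two-sided sign-flip tests. Alternatives were DESeq2 1.42.0 size factors, library totals, rescaled TPM, the second table, other thresholds and leaving out each library. The named genes are the 10 genes, other S100 and annexin genes detected, and a list of partners. Members and lists were chosen with earlier results of these data known. Depth (28759407 to 54709008 counts) limits S100a8 and S100a9 most. Promoters came from RefSeq, GRCm38.p6.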

Additional observations from a re-analysis of the deposited data

How the results depend on the processing

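The 10 genes were all detected without any 1 library and at 0.1 TPM, 8 were at 5 TPM and 9 in the second table. Leaving out 1 library at a time gave log2 differences of 0.16 to 0.48 for S100a9 minus S100a8 and 0.60 to 1.03 for Anxa2 minus S100a10. They were 0.18 to 0.34 for Anxa1 minus S100a11 and 0.92 to 1.25 for S100a6 minus S100a4. Genes varying beyond counting error numbered 9, 8 and 5 of the 10 without replicate 1, 2 or 3, respectively. Of all tested genes, 53.2%, 44.3% and 44.2% did so. Without length correction (CPM) Anxa2 minus S100a10 was 2.25 and Anxa1 minus S100a11 was 2.52, both past 3 SD, since the annexin transcripts are longer. With 0.1 TPM added, S100a6 minus S100a4 was 1.17 and no longer past 3 SD. None of these 4 mean differences changed sign under the alternatives run. Among the other neighbours in the order of levels, examined after seeing the data, Anxa5 minus Anxa2 was 0.05 in the second table, no longer past 3 SD. S100a4 minus S100a9 was 2.03 without replicate 3, past 3 SD, with an SD from the remaining libraries alone. Replicate 3 was lowest for 8 genes with DESeq2 size factors and with TPM, for 7 with library totals and rescaled TPM, and for 9 in the second table. The share of all tested genes lowest there was computed for TMM only, at 36.2%. All tested genes shifted with the scaling too. Those below the mean of the other libraries in replicate 3 were 52.6%, 43.9%, 52.3%, 47.8% and 66.9% in the order of the settings just named, so these counts are not alike in meaning. Both the choice of replicate 3 and these alternatives were made after seeing the data. Levels in TPM depend on the denominator: the Anxa5 mean of 126.5 TPM was 48.5 in the second table and 435.1 when rescaled to nuclear protein-coding genes. No paired analysis was possible because there is a single group, so replicate numbers have no other group to be matched with; the gene pairs above were compared within libraries. With 3 libraries of 1 group, no response to Lipid A can be read, and the 43 counts of S100a8 and S100a9 in replicate 1 limit their comparison.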
